A study of Mus musculus with 2 samples.

Results

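The type I interferon-stimulated genes described here are a list of 38 mouse genes that respond to type I interferon, taken by symbol. The list was chosen with earlier results of these data known. Of the 38 genes, 37 were among the 31055 gene features of the matrix, and Mx2 was not analysed here. Together they held 336421 unique molecular identifiers (UMIs, each counting 1 captured mRNA molecule), which was 0.304% of the UMIs of 4236 cells. The cells were sorted as immune cells from live sections of tumours of the mouse melanoma line B78ChOVA, taken 16 days after the line was placed under the flank skin of mice in 50 µl of Matrigel mixture. ZipSeq marks chosen regions of a section with light-released DNA barcodes before dissociation, so that a droplet gives both the mRNA of a cell and the barcode of its region. Both libraries, GEX for mRNA and ADT for the spatial barcodes, were of 1 set of cells, no group had been given interferon or blocked from it, and with no replicate no test was possible. The strain, age and number of mice are not stated in the labels.

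Cells had 1027 to 215512 UMIs, with a median of 23132, and each was put in a class by marker genes alone, which is why class names end in -like. Macrophage-like cells numbered 1970 and were above the limit for C1qa, C1qb and C1qc and below that for Ly6c2 and Ccr2, intermediate cells numbered 506 and were above both, and monocyte-like cells numbered 497 and had Ly6c2 and Ccr2 with little C1q. Of 2476 cells with C1q, 198 lay within 20% of the Ly6c2 and Ccr2 limit that separates macrophage-like from intermediate cells. None of the marker genes is on the interferon-stimulated list, but whether any of them responds to interferon was not tested. The melanoma-like class had 47 cells, and the pan-leukocyte gene Ptprc was found in 38.3% of them although the sort was for immune cells. Levels are counts per 1000000 UMIs (CPM), the UMIs of a gene summed over a class and scaled to its total, and levels of 1 gene are compared between classes, not genes with each other. A range given after a value is its 95% interval for counting error within this library, which says nothing of the spread between tumours. A gene was called higher or lower past 1.5-fold if it had at least 30 UMIs over both sets of cells and at least 3 expected in the smaller.

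Type I interferons, interferon beta and the interferon alphas, bind the receptor pair Ifnar1 and Ifnar2. The kinases on that receptor activate Stat2, which acts with Irf9 in a complex that binds an interferon-stimulated response element in front of its target genes. The targets block viruses at many steps and also feed back on sensing and signalling, and several of them, such as Ifit1, Ifit2 and Isg15, are also known to respond directly to Irf3, the factor that switches on Ifnb1. In tumours the same genes are read as a mark of interferon exposure of myeloid and T cells.

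The promoters below show how that element is laid out in Rsad2, Ifit3, Ifit1, Isg15 and Bst2, and beside them stretches of Irf9 and Cmpk2 without it. They were chosen to show layouts, not to relate the element to levels. Each is the 170 bases before the RefSeq transcript start on GRCm38.p6, read 5′ to 3′ along the gene's strand. Capitals mark the element's core, which is GAAA, any 2 bases and GAAA, or on the other strand TTTC, any 2 bases and TTTC. The stretches lie at chr12:26456453-26456622 on the minus strand for Rsad2, chr19:34583359-34583528 on the plus strand for Ifit3, chr19:34640719-34640888 on the plus strand for Ifit1, chr4:156200819-156200988 on the minus strand for Isg15, chr8:71537473-71537642 on the minus strand for Bst2, chr14:55603815-55603984 on the plus strand for Irf9 and chr12:26469045-26469214 on the plus strand for Cmpk2.
Rsad2: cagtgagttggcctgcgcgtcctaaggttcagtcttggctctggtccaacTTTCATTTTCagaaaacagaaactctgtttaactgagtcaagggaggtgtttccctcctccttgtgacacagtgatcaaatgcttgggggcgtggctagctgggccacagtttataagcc
Ifit3: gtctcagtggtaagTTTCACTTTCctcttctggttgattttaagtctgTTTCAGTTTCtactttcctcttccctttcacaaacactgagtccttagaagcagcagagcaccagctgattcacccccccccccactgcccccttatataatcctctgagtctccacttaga
Ifit1: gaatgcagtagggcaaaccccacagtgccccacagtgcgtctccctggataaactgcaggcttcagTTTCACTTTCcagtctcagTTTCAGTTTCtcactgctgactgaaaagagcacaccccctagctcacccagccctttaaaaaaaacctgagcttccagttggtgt
Isg15: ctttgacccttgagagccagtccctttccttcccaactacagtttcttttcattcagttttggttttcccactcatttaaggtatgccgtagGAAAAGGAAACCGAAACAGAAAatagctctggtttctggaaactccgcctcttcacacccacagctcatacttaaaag
Bst2: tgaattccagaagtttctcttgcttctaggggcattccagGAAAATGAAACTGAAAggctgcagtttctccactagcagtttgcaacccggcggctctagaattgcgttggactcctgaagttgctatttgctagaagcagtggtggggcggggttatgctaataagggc
Irf9: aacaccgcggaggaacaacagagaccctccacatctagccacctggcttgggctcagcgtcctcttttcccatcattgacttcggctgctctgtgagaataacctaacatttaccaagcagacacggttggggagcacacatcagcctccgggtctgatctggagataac
Cmpk2: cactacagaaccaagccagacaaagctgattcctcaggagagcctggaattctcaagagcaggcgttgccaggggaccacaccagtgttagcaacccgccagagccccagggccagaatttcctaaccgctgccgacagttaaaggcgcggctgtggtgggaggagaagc

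Rsad2 held 1 match, Ifit3 and Ifit1 held 2 separate matches each, Isg15 held 3 overlapping matches, Bst2 held 2 overlapping matches, and these letters are not in the stretches shown for Irf9 and Cmpk2. The Isg15 matches lay closest to the start among the genes shown, ending 57 bases before it, and the Rsad2 match ended 111 bases before it. A window of 250 bases before the start could be read for 27 of the 38 members, and 12 of those, 44.4%, held the core on either strand. Over all 27018 genes with a window the share was 3.46%. At least 2 matches were found in 6 members, against 0.211% of all genes. Members with and without a match were both among those that varied most between cells. The measure is the ratio of the top 10% of cells over the rest, given further on, and its classes differ between members. Its median was 16.3 for Ifit1, with matches. For Cmpk2, Ifit2 and Ifi44, which held none in the windows read, it was 11.7, 10.5 and 8.84. A match of letters is a description and not a bound site. Members also lie in clusters in the genome: Ifit1, Ifit1bl1, Ifit2, Ifit3 and Ifit3b are within chr19:34550694-34650009, and all 5 Oas and Oasl members are on chromosome 5 (GENCODE gene models on GRCm38).

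As a share of UMIs, monocyte-like cells held the most interferon-stimulated mRNA of the named classes. Summed over the 37 members, the level was 1849.6 CPM in melanoma-like, 2654 CPM in macrophage-like, 3368 CPM in intermediate and 6937 CPM (6873–7002) in monocyte-like cells. Among dendritic classes it was 1846.5 CPM in mature DC-like, 1511 CPM in cDC1-like, 3519.7 CPM in cDC2-like and 4633 CPM in pDC-like cells, the last from 18 cells. Lymphoid classes had 3377 CPM in Treg-like, 1146 CPM in NK-like, 3567 CPM in CD4 T-like, 1791 CPM in checkpoint-high CD8 T-like and 2088 CPM in checkpoint-low CD8 T-like cells. Ifi27l2a, a small interferon-raised gene, held 54.0% of the member UMIs in Treg-like and 50.8% in CD4 T-like cells, against 24.4% in macrophage-like cells. Without it, a sum added after the data were seen, Treg-like cells had 1552 CPM, CD4 T-like cells 1755 CPM, macrophage-like cells 2006 CPM and monocyte-like cells 4335 CPM, so Treg-like and CD4 T-like cells stood below macrophage-like cells, and monocyte-like cells were still the highest class. Over the 13 classes with at least 30 cells, 29 of 37 members were highest in monocyte-like cells, and for 21 of these the interval lay clear of that of the next class. The share of all genes highest in monocyte-like cells was not computed. The members highest elsewhere were Irf9 in CD4 T-like cells, Isg20 in Treg-like cells, Ifi35 and Eif2ak2 in cDC1-like cells, Siglec1 in macrophage-like cells, Herc6 in mature DC-like cells, and Ifi44 and Bst2 in melanoma-like cells. For Irf9, Ifi35, Eif2ak2 and Herc6 the interval was not clear of that of the next class.

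Free RNA, read from 68497 barcodes with 10 to 100 UMIs, carried the members at 3189.8 CPM, so a level in a class has to be read against it. In monocyte-like cells 32 members had an interval above that of free RNA, while 13 did in cDC2-like, 9 in intermediate and 5 in macrophage-like cells. In checkpoint-high CD8 T-like cells 1 member was above free RNA and 25 were below it. The same counts were not made over all genes, so these cannot be set against a general share. In pDC-like cells Bst2, which tethers budding virus to the cell surface, reached 2347 CPM, against 383 CPM in free RNA. Ifi27l2a was among the 3 members with the most UMIs in every named class except melanoma-like cells, where Bst2, Isg15 and Rsad2 led.

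**Figure D1:**
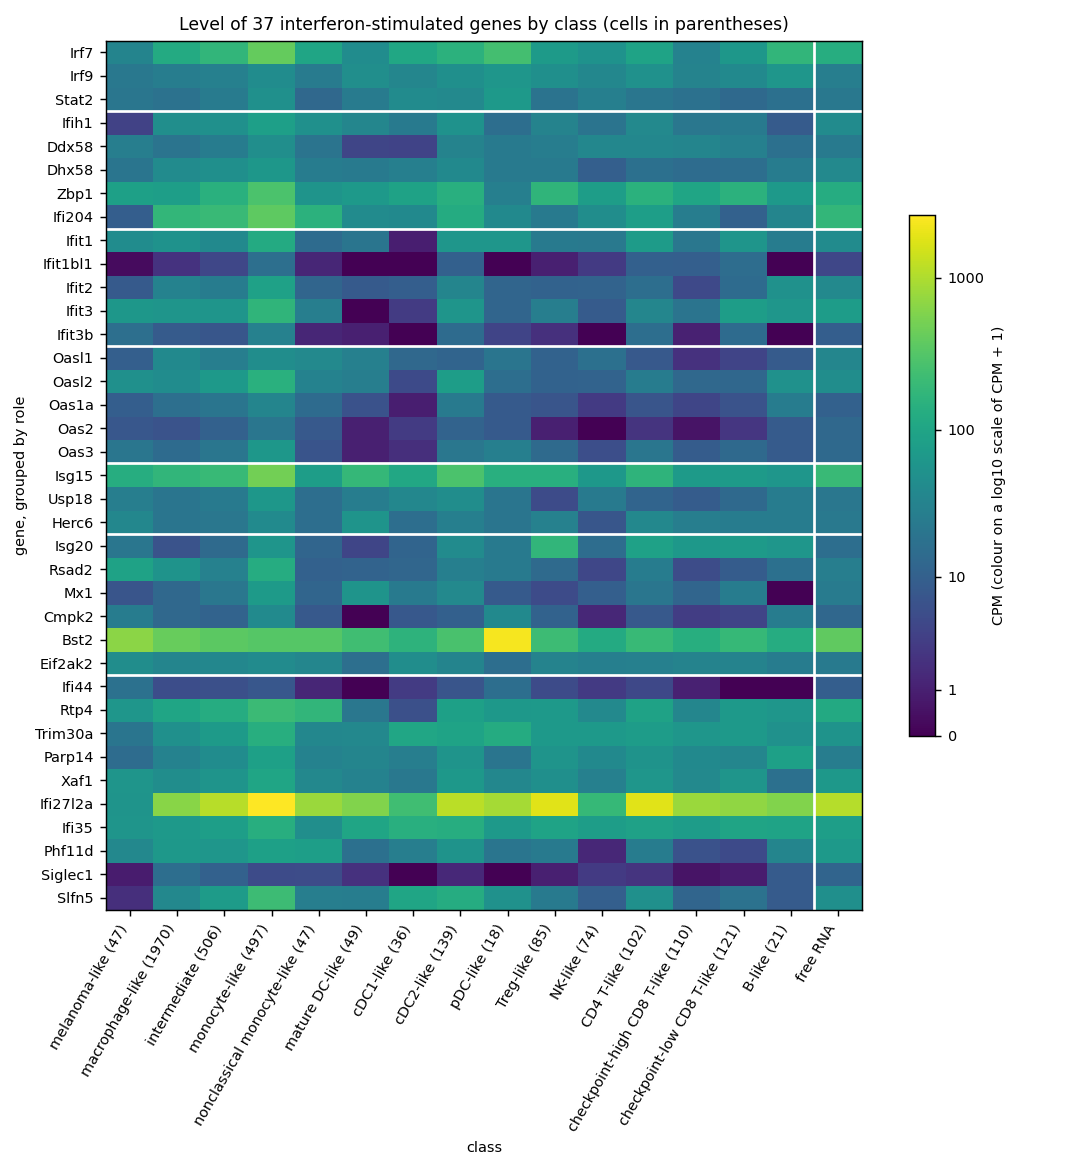
Level of each of 37 members (down the page, grouped by role) in each class (across, number of cells in parentheses) and in free RNA, as CPM on a log10 colour scale of CPM + 1. Among classes with at least 30 cells the monocyte-like column is brightest for 29 members, and Bst2 is brightest in pDC-like cells at 2347 CPM.

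Macrophage-like cells had lower levels than monocyte-like cells for 30 of 37 members past 1.5-fold, and 1 member, Siglec1, was higher. Of all 11764 genes compared, 16.8% were lower and 27.0% higher by the same rule. The members' median log2 ratio was -1.41, against 0.14 over all genes. These levels are shares of UMIs, and macrophage-like cells were deeper, with a median of 31948 UMIs against 11076 in monocyte-like cells. By count, 1970 macrophage-like cells held 176016 member UMIs and 497 monocyte-like cells held 44452. The ratios therefore do not compare molecules per cell. All 3 signal genes were lower: Irf7, the factor that drives the interferon alphas, had 120 CPM in macrophage-like cells against 410 CPM in monocyte-like cells, a ratio of 0.29 (0.280–0.306), Stat2 had 18.5 against 51.3 CPM, and Irf9 had 27.2 against 44.5 CPM. Among sensors of foreign nucleic acid, 4 of 5 were lower. Macrophage-like cells had 81.2 CPM of Zbp1, which senses Z-form nucleic acid, against 280.6 CPM in monocyte-like cells, and 184 CPM of the DNA sensor Ifi204 against 366 CPM. Dhx58, a helper of RNA sensing, stayed within 1.5-fold, at 43.7 against 62.7 CPM.

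All 5 IFIT genes, whose proteins bind viral RNA, were lower in macrophage-like cells. Macrophage-like cells had 2.16 CPM of Ifit1bl1 and 58.8 CPM of Ifit3, against 16.5 and 172 CPM in monocyte-like cells. The OAS family is named for enzymes that make the oligoadenylates that switch on RNase L, an activity not implied for each member. Of the 5 on the list 4 were lower. Oasl1 stood within the limit, with 40.7 CPM for macrophage-like against 46.8 CPM for monocyte-like cells. Isg15, the ubiquitin-like modifier, had 175 CPM in macrophage-like cells against 481 CPM in monocyte-like cells, and Usp18, which removes it from proteins, and Herc6, its ligase in the mouse, were also lower. The widest ratio, 0.11 (0.0956–0.126), was that of the exonuclease gene Isg20, with 6.59 CPM in macrophage-like cells against 59.9 CPM in monocyte-like cells. Macrophage-like cells also had 38.7 CPM of Slfn5 and 13.1 CPM of the antiviral GTPase Mx1, against 219.6 and 71.8 CPM in monocyte-like cells. Of the 10 members with other or less settled roles 7 were lower: Ifi27l2a, Slfn5, Parp14, Trim30a, Xaf1, Rtp4 and Ifi35, with ratios of 0.18 for Slfn5 to 0.48 for Ifi35. Ifi44, Phf11d and the kinase gene Eif2ak2 stayed within the limit at ratios of 0.74, 0.75 and 0.79.

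Siglec1, a sialic acid receptor of macrophages, ran the other way, with 16.3 CPM for macrophage-like against 4.99 CPM for monocyte-like cells, a ratio of 3.27 (2.30–4.80). Bst2 was 1.30 times higher in macrophage-like cells, within the limit, at 422 against 324 CPM. Intermediate cells gave a median log2 ratio of -0.96 over monocyte-like cells, with 30 of 37 members lower and Siglec1 again the 1 higher, against 11.2% and 19.1% of 10419 genes. Both comparisons used the same monocyte-like cells. Rsad2, the antiviral enzyme viperin, had 56.3 CPM in macrophage-like and 31.1 CPM in intermediate cells, against 127 CPM in monocyte-like cells. Of 55 further interferon-stimulated genes compared, 40 were lower and 2 higher in macrophage-like cells. The lowest was Slfn4, with 2.08 CPM for macrophage-like against 25.6 CPM for monocyte-like cells, and the highest was the chemokine gene Ccl12 at 1996 against 335 CPM. Interferon gamma genes were lower for 4 and higher for 2 of 15, and of 10 receptor and signal genes 6 were lower, with Jak2, a kinase, lowest at 18.3 against 66.6 CPM.

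**Figure D2:**
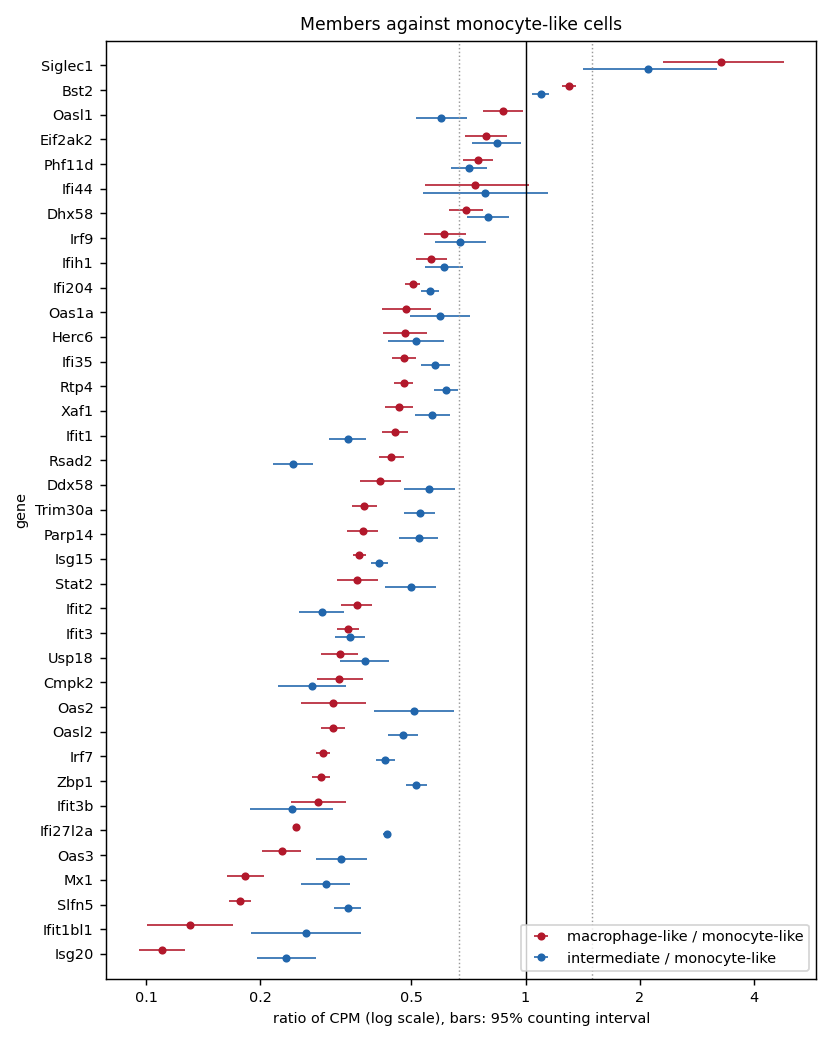
Ratio of CPM of each member (down the page) in macrophage-like cells (red) and intermediate cells (blue) over monocyte-like cells, on a log scale, with 95% counting intervals, and dotted lines at 1.5-fold either way. All members but Siglec1 and Bst2 lie left of 1 in both comparisons.

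Among CD8 T-like cells, Mx1 and the 3 of 5 IFIT genes that could be compared were lower in checkpoint-high than in checkpoint-low cells. The 110 checkpoint-high cells, split by summed Pdcd1, Havcr2, Lag3 and Tnfrsf9, had 11 of 27 comparable members lower and 1 higher than the 121 checkpoint-low cells, against 10.0% lower and 10.9% higher of 7373 genes. The median log2 ratio was -0.30, against 0.03 over all genes. Ifit3 had 19.8 CPM in checkpoint-high and 78.5 CPM in checkpoint-low cells, a ratio of 0.25 (0.169–0.371), Ifit1 had 21.4 and 59.1 CPM, and Mx1 had 12.0 and 25.9 CPM. Ifit1bl1 had 9.92 and 15.4 CPM, a ratio whose interval spans 1 (0.323–1.29), and Ifit2 and Ifit3b had too few UMIs to compare. Ifi204 had 26.6 CPM in checkpoint-high and 10.5 CPM in checkpoint-low cells, but free RNA held 181 CPM of it, and its direction turned when the gate limits were doubled or halved. Ifng, the gene of interferon gamma, was 3.79 times higher in checkpoint-high cells, at 522 against 138 CPM. Checkpoint-high cells were the deeper, with a median of 12612 UMIs against 5976 UMIs. C1q genes stood at 349 CPM in checkpoint-high and 452 CPM in checkpoint-low cells, and the part of either in the result was not tested. Doubled or halved gate limits moved the median to -0.73 and -0.68.

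Treg-like cells had 8 of 30 comparable members higher than CD8 T-like cells, against 15.0% of 8096 genes. The 4 lower members were a share near the 10.7% of all genes, and the median log2 ratio was 0.36, against 0.07 over all genes. Phf11d was highest by ratio at 24.9 CPM in Treg-like and 5.71 CPM in CD8 T-like cells. Isg20 had 173.5 CPM in Treg-like and 67.9 CPM in CD8 T-like cells, a ratio of 2.56 (2.08–3.14), and Ifi27l2a had 1825 and 758 CPM. Ifit1bl1 had 1 UMI, 0.997 CPM, in Treg-like cells and 12.1 CPM in CD8 T-like cells, Mx1 had 4.99 and 17.5 CPM, and Usp18 had 4.99 and 10.8 CPM, with an interval of its ratio that spans 1 (0.141–1.19). Leaving out, gene by gene, the cell with the most UMIs brought the median to 0.10, with 5 members higher and 7 lower.

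NK-like cells had 3 of 28 members higher and 11 lower than CD8 T-like cells, against 13.2% and 20.6% of 7933 genes, with a median log2 ratio of -0.23 and -0.11 over all genes. Ifit3 had 8.54 CPM in NK-like and 42.8 CPM in CD8 T-like cells, and Isg20 had 15.7 and 67.9 CPM. Ifi204, Usp18 and Stat2 were the 3 higher, with Ifi204 at 47.0 CPM in NK-like and 20.3 CPM in CD8 T-like cells, both under the 181 CPM of free RNA, and an interval for Stat2 that spans 1 (0.993–3.00). C1q genes were at 2528 CPM in NK-like and 389 CPM in CD8 T-like cells, and their part in the result was not tested. With the gate limits halved, the median turned to 0.37, with 11 members higher and 4 lower.

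The 139 cDC2-like cells held more member mRNA than mature DC-like and cDC1-like cells. They were gated by summed Cd209a, Flt3, Clec10a, Mgl2 and Ccr6. Cd209a, Mgl2 and Clec10a stood at 800, 908 and 366 CPM in them. Flt3 was at 30.3 CPM, against 152 CPM in cDC1-like and 112 CPM in mature DC-like cells, and Ccr6 was at 4.37 CPM. Ccr2 was at 585 CPM in cDC2-like and 1068 CPM in monocyte-like cells. The origin of cDC2-like cells was not tested. Mature DC-like cells, marked by Ccr7 and Fscn1, had 26 of 33 members lower and 2 higher than cDC2-like cells, against 29.6% and 15.7% of 7690 genes, and a median log2 ratio of -1.31 against -0.19 over all genes. Ifit3 had 0 UMIs in 49 mature DC-like cells and 60.2 CPM in cDC2-like cells, at least 19.5-fold lower with a floor of 3 UMIs over the class. Oas3 had 1 UMI, 1.03 CPM, in mature DC-like cells against 21.9 CPM in cDC2-like cells, a ratio of 0.047 (0.00117–0.272). Herc6 ran the other way at 57.5 CPM in mature DC-like and 28.4 CPM in cDC2-like cells, as did Oasl1 at 29.8 and 11.7 CPM. C1q genes were at 2320 CPM in mature DC-like and 813 CPM in cDC2-like cells, and their part in the 2 higher members was not tested.

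The 36 cDC1-like cells, which cross-present antigen, had 23 of 34 members lower and 0 higher than cDC2-like cells, against 23.7% and 12.3% of 7672 genes, with a median log2 ratio of -1.12 against -0.09 over all genes. Ifit1 had 1 UMI, 0.959 CPM, in cDC1-like cells against 60.9 CPM in cDC2-like cells, and Oas1a had 1 UMI against 24.4 CPM. Eif2ak2, the RNA-activated kinase PKR, stood at 46.0 CPM in cDC1-like and 33.5 CPM in cDC2-like cells, and Trim30a at 104.5 and 94.1 CPM, both within 1.5-fold. From the sensing list, Tlr3 was 23.4 times higher in cDC1-like cells, at 76.7 against 3.28 CPM.

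Melanoma-like cells had 16 of 37 members lower than macrophage-like cells, against 23.0% of 11444 genes. Another 7 were higher, a smaller share than the 39.2% of all genes, and the median log2 ratio was -0.28, against 0.31 over all genes. Ifi44 had 17.6 CPM in melanoma-like and 5.40 CPM in macrophage-like cells, Isg20 had 20.8 and 6.59 CPM, and Rsad2 had 92.2 and 56.3 CPM. In melanoma-like cells 1 cell held 48.5% of the Ifi44, 51.3% of the Isg20 and 55.7% of the Rsad2 UMIs. With the cell richest in each gene left out of either class, Ifi44 and Isg20 alone were higher, at ratios of 1.81 and 1.64, Rsad2 turned to a ratio of 0.83, 20 members were lower and the median was -0.69. Slfn5 had 1.87 CPM in melanoma-like and 38.7 CPM in macrophage-like cells, Siglec1 had 0.801 and 16.3 CPM, and Ifih1, the sensor of long double-stranded RNA, had 3.74 and 47.0 CPM. With at most 5% mitochondrial UMIs the median turned to 0.90, with 23 members higher and 6 lower of 36. Neither the share of all genes nor the number of melanoma-like cells left was recorded at that limit. Whether the turn is particular to the members was therefore not tested.

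Within a class, the members were spread unevenly, and cells high in some members were high in others. After each cell was thinned to 1000 UMIs, at least 10 member UMIs were found in 4.21% of macrophage-like, 6.13% of intermediate and 27.6% of monocyte-like cells, the last 137 of 497. In lymphoid classes the share was 8.24% of Treg-like, 9.80% of CD4 T-like, 3.64% of checkpoint-high and 5.79% of checkpoint-low CD8 T-like cells, and it was 7.91% in cDC2-like cells. No member UMI was left in 18.7% of macrophage-like and 4.43% of monocyte-like cells. Across cells, the summed UMIs of members at odd places of the list correlated with those at even places at r = 0.51 over 1970 macrophage-like, 0.61 over 506 intermediate and 0.67 over 497 monocyte-like cells. These cells share 1 library and, after thinning, 1 depth.

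Cells were then ranked by the members at odd places and the members at even places were measured, and the other way round. In macrophage-like cells, all 37 members were more than 1.5-fold higher in the top 197 cells than in the rest, where 6.11% and 5.95% of all genes were higher in the 2 rankings. In monocyte-like cells, 17 of 18 and 18 of 18 compared were higher in the top 49 cells, against 9.54% and 9.61% of all genes, and the exception was Irf9. Medians over members were log2 2.08 and 1.76 in macrophage-like and 2.49 and 2.15 in monocyte-like cells. Rsad2 had 449 CPM in the top macrophage-like cells and 18.0 CPM in the rest, and 1005 CPM in the top monocyte-like cells and 47.2 CPM in the rest. Irf9 had 41.4 CPM in the top macrophage-like cells and 25.8 CPM in the rest, and 50.3 CPM in the top monocyte-like cells and 43.9 CPM in the rest.

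The split was made in the 8 classes with at least 80 cells. By the median ratio over the classes in which each member could be compared, Rsad2 led at 23.1 (10.6 to 25.3 over 4 classes), followed by Ifit3b at 17.1, Ifit3 at 16.6 and Ifit1 at 16.3 (5.80 to 23.3 over 7 classes). Isg15 was at 8.70 over 8 classes, and Isg20 and Irf7 were at 6.01 and 5.65 over 8 classes. At the other end were Eif2ak2 at 2.27, Ifi27l2a at 1.64, Irf9 at 1.57 and Siglec1 at 1.42, the last over 2 classes. Ifit3 and Ifit3b share 61.8% of the 31-base stretches of Ifit3, so their counts cannot be fully told apart, and the same holds for Oas1a, which shares 68.7% of its stretches with Oas1g, for Ifi204, which shares 34.0% with other genes, and for Ifit1bl1 at 19.3%. Of genes not on the list, those whose thinned UMIs correlated best with the summed members over 1970 macrophage-like cells were Ifitm3 at r = 0.33, Cxcl10 at 0.28, Ccl4 at 0.28, Ms4a4c at 0.27, Pnp and Ly6a at 0.26, Phf11b at 0.22, Ifi211 at 0.21, Cd40 at 0.20 and Ifi203 at 0.19, among 2649 genes found in at least 5% of the cells. Of these 10, Ifitm3, Cxcl10, Ms4a4c, Phf11b, Ifi211 and Ifi203 were on the list of further interferon-stimulated genes.

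**Figure D3:**
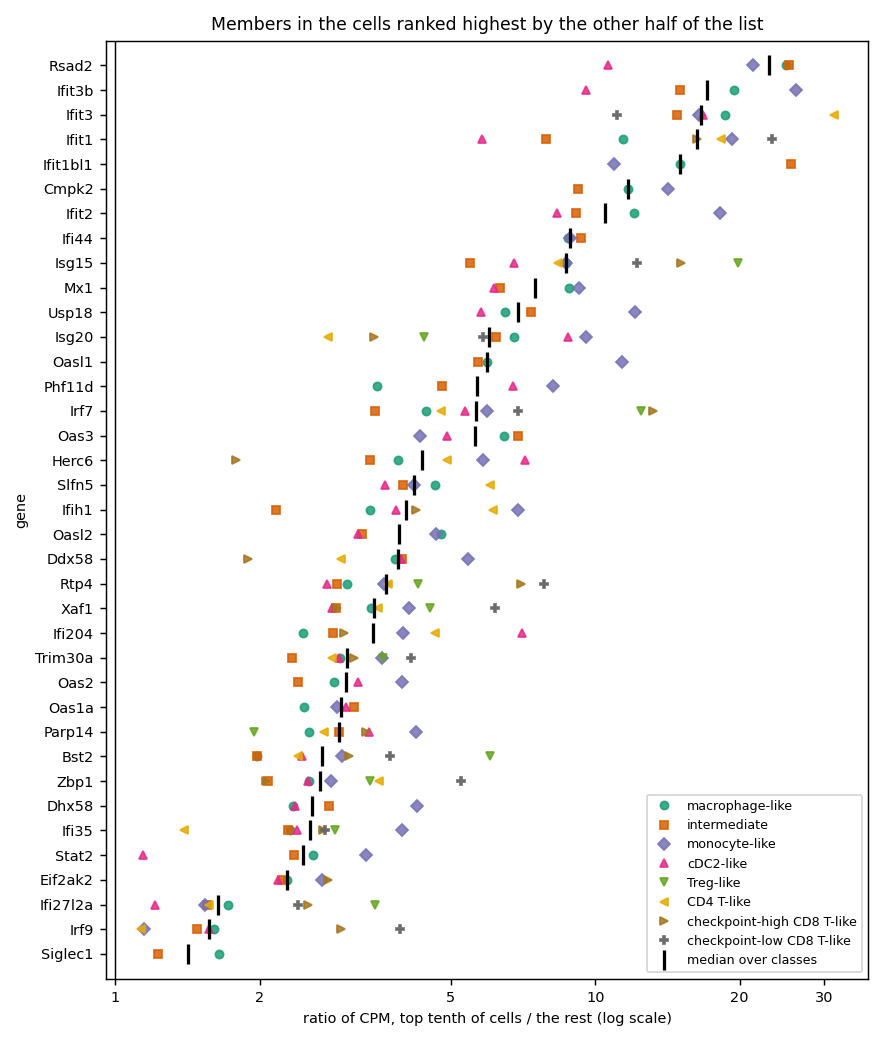
Ratio of CPM in the top 10% of cells over the rest of the class, on a log scale, for each member (down the page) measured in cells ranked by the members at the other places of the list, with 1 symbol per class and a black bar at the median over classes. Rsad2 stands highest at a median of 23.1 and Siglec1 lowest at 1.42, but the classes that could be compared differ between members.

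Of the interferon genes themselves, Ifnb1 was found mostly in macrophage-like cells. It had 445 UMIs in 55 of 1970 macrophage-like cells, 2.79% (2.11–3.62), with up to 40 UMIs in 1 cell and at least 2 UMIs in 43 cells. In 506 intermediate and 497 monocyte-like cells it had 0 UMIs, which at a floor of 3 cells allows a share of cells with a UMI of up to 0.593% and 0.604%, and says nothing of expression below 1 UMI per cell. It had 0 UMIs in 18 pDC-like cells as well, which by the same floor allows up to 16.7%. In 2 of 36 cDC1-like cells, 5.56% (0.680–18.7), and in 1 mature DC-like and 1 melanoma-like cell it had 1 UMI each. The cDC1-like interval spans that of macrophage-like cells. Outside the named classes, 5 of 298 unassigned cells, 1.68% (0.547–3.87), held 9 UMIs, and 1 of 116 cells with both T cell and C1q genes held 1 UMI. Free RNA held 22 Ifnb1 UMIs of 3422437 UMIs, a share similar to that of macrophage-like cells, with 445 of 66331251. The part of free RNA in cells with 1 Ifnb1 UMI was not tested. Macrophage-like cells were deeper, with a median of 31948 UMIs, against 23883.5 UMIs in intermediate and 11076 UMIs in monocyte-like cells.

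The 55 Ifnb1-positive macrophage-like cells were compared with the other 1915, a split chosen after the values of Ifnb1 were seen. Of 37 members 23 were higher past 1.5-fold and 0 lower, against 9.01% higher and 29.4% lower of 10091 genes, with a median log2 ratio of 1.07 against -0.30 over all genes. Ifit1 had 887 CPM in Ifnb1-positive and 33.4 CPM in Ifnb1-negative cells, a ratio of 26.5 (24.8–28.4). Rsad2 had 893 CPM in Ifnb1-positive and 35.0 CPM in Ifnb1-negative cells, and Ifit2 had 420 and 22.2 CPM. Ratios of Isg15, Ifit3 and Oasl1 were 9.91, 9.64 and 7.59. These genes were high in both splits of the class.

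The other 14 members, which were all higher in the top 10% of macrophage-like cells, stayed within 1.5-fold in Ifnb1-positive cells. Eif2ak2 had a ratio of 2.27 in the top cells and 0.79 (0.573–1.06) in Ifnb1-positive cells, at 27.3 CPM in Ifnb1-positive and 34.7 CPM in Ifnb1-negative cells. Ifi35 had ratios of 2.31 in the top cells and 0.86 in Ifnb1-positive cells, Oas1a 2.47 and 0.87, Zbp1 2.53 and 0.92, and Oas2 2.86 and 1.03. Slfn5 had 4.65 and 1.49, the nearest to the limit. Leaving out the cell with the most UMIs of each gene put Oas2, Ifi35 and Eif2ak2 at ratios of 0.39, 0.63 and 0.28, below the limit. It left 18 members higher. Among Ifnb1-positive cells the richest cell held 63.6% of the Oas2 UMIs and the richest held 66.7% of the Eif2ak2 UMIs. In the cells low in heat shock genes described next, with no cell left out, Oas2 and Eif2ak2 stood at 1.63 and 1.51. Whether the richest cells were among them was not recorded, so these values cannot be set against the left-out ones. A set of 17 members was higher in all 4 of the following settings. These were the reported split, the split at 2 UMIs, the richest cell of each gene left out and the mean of the cells' CPM. Among the 17 were Ifit1, Ifit2, Ifit3, Rsad2, Isg15, Oasl1, Oasl2, Mx1 and Cmpk2. For an overlap, macrophage-like cells were ranked once more, by the summed thinned UMIs of all 37 members. Of the 55 Ifnb1-positive cells 27, 49.1%, were among the 197 top cells of that ranking, against 10% of the whole class. These 27 were 13.7% of the top cells. That ranking includes the members that were higher in Ifnb1-positive cells, so part of the overlap follows from how the cells were ranked.

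Other genes moved with the same split. Of genes not on the list, the 10 highest by ratio were Hspa1a, Hspa1b, Adm, Hspb1, Otud1, Ccl4, Rhov, Cxcr4, Ppp1r15a and Plk2. Hspa1a, a heat shock chaperone gene, had 1525 CPM in Ifnb1-positive and 89.0 CPM in Ifnb1-negative cells, and the chemokine gene Ccl4 had 8638 and 1106 CPM. Among cells with less than 1 UMI of Hspa1a and Hspa1b per 10000, 19 Ifnb1-positive against 1740 Ifnb1-negative, 27 of 36 members were higher and 0 lower, against 9.55% higher and 19.9% lower of 8867 genes. The median log2 ratio was 1.26, against -0.14 over all genes, and Ifit1 was 26.0 times higher. No cell was left out among these 19 positive cells. In the full set of 55, the richest cell held between 6.35% of a member's UMIs, for Ifit2, and 68.6%, for Ifit3b. Whether such cells were among the 19 was not recorded. How far the count of 27 rests on single cells was therefore not tested. In the full split, the 55 positive cells had a median of 25228 UMIs and the 1915 negative cells 32068 UMIs. The counts that follow are also of the full split, where 9.01% of 10091 genes were higher and 29.4% lower. Of further interferon-stimulated genes 15 of 53 were higher and 2 lower, led by Slfn4 at 10.3 CPM in Ifnb1-positive and 1.87 CPM in Ifnb1-negative cells. Of 15 interferon gamma genes 2 were higher and 6 lower, and of 10 receptor and signal genes 0 were higher and 4 lower, with Ifngr1 lowest at 48.5 CPM in Ifnb1-positive and 111.7 CPM in Ifnb1-negative cells.

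**Figure D4:**
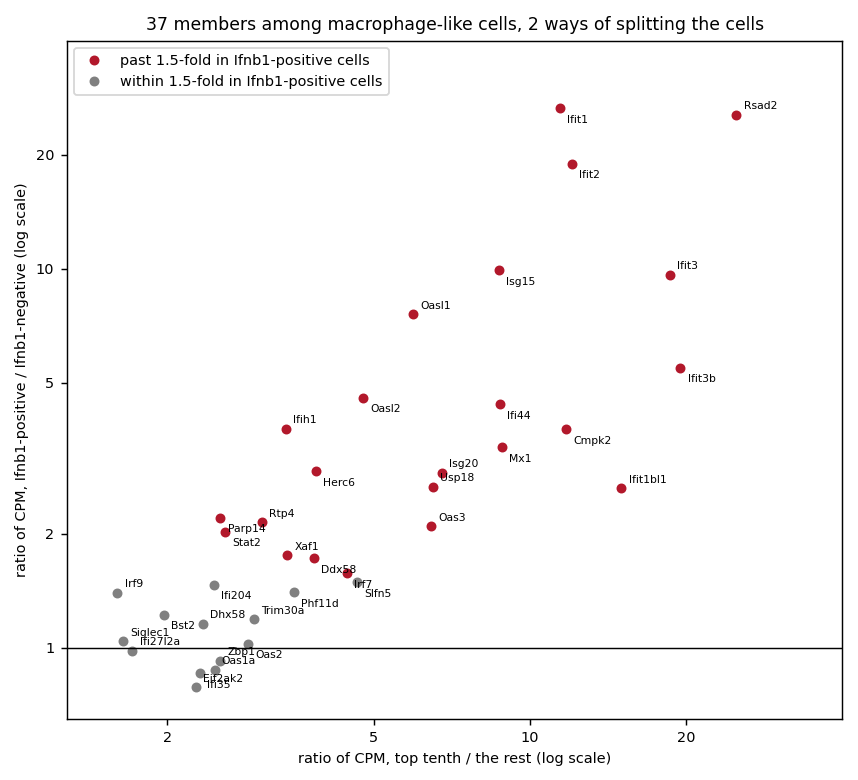
Each of 37 members by its ratio of CPM in the top 10% of macrophage-like cells over the rest (across) and in Ifnb1-positive over Ifnb1-negative macrophage-like cells (up), both on log scales. The 23 members past 1.5-fold in Ifnb1-positive cells are red and the other 14, which stand between 0.79 and 1.49 upwards, are grey.

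Regions were compared by the spatial barcodes ZC1, ZC2 and ZC3, whose places in the section the labels do not state. Where the leading barcode had to reach 10 UMIs and to exceed the runner-up by 2 times, 76 cells were ZC1, 85 ZC2 and 2207 ZC3, and by that rule the 20 ZC2 and 63 ZC3 CD8 T-like cells alone could be compared. There 1 of 15 members was higher and 7 lower in ZC2, against 11.8% and 22.0% of 4880 genes, with a median log2 ratio of -0.57 against -0.08 over all genes. Isg15 had 29.3 CPM in ZC2 and 80.6 CPM in ZC3, a ratio of 0.36 (0.130–0.824). Ddx58, the RNA sensor RIG-I, was the 1 higher at 1.51 (0.593–3.39), an interval that spans 1. A relative rule, which divides each barcode's share by its share in free RNA and asks for 30 spatial UMIs and a lead of 1.5 times, made 670 cells ZC1, 601 ZC2 and 1081 ZC3. The values that follow use the relative rule, and were added after the data were examined. By the first rule 7 monocyte-like, 2 intermediate, 3 macrophage-like and 7 cDC2-like cells were ZC1, and 7, 2, 6 and 12 were ZC2. Most ZC1 and ZC2 labels in these classes therefore rest on the relative rule alone.

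Monocyte-like cells of ZC1 had lower members than those of ZC2 and ZC3. Their summed level was 4635 CPM in 106 ZC1 cells, 7200.0 CPM in 99 ZC2 cells and 7852 CPM in 124 ZC3 cells. ZC1 over ZC3 gave 0 members higher and 25 of 34 lower, against 11.7% and 5.49% of 6973 genes, with a median log2 ratio of -0.83 against 0.07 over all genes. ZC1 over ZC2 gave 0 higher and 25 of 35 lower, against 9.70% and 5.34% of 6876 genes, with the same median of -0.83. ZC2 over ZC3 gave 7 higher and 2 lower of 35, against 6.99% and 6.12% of 6783 genes, and a median of 0.02. Ifit3 had 32.3 CPM in ZC1, 217.6 CPM in ZC2 and 182 CPM in ZC3 monocyte-like cells, and Ifit2 had 23.1, 145 and 79.1 CPM in that order. Irf9 had 49.8 CPM in ZC1, 40.8 CPM in ZC2 and 53.6 CPM in ZC3, within 1.5-fold in each pair.

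The share of monocyte-like cells with at least 10 member UMIs of 1000 was 13.2% (7.41–21.2) in ZC1, 32.3% (23.3–42.5) in ZC2 and 28.2% (20.5–37.01) in ZC3. Median depth was 11712 UMIs in ZC1, 11690 UMIs in ZC2 and 10615.5 UMIs in ZC3 cells, and C1q genes were at 2.43, 2.64 and 2.47 UMIs per 10000 in that order. The cell with the most UMIs of the IFIT genes and Rsad2 held 18.4% of them in ZC1, 10.8% in ZC2 and 13.7% in ZC3.

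In cDC2-like cells ZC3 stood apart. The summed level was 2546 CPM in 34 ZC1 cells, 2623 CPM in 44 ZC2 cells and 6554 CPM in 29 ZC3 cells. ZC1 over ZC3 gave 29 of 31 members lower and 0 higher, against 9.41% and 17.8% of 4695 genes, with a median log2 ratio of -1.81 against 0.08 over all genes. ZC2 over ZC3 gave 28 of 31 lower and 0 higher, against 8.62% and 12.8% of 4930 genes, with a median of -1.56. Ifit1 had 5.76 CPM in ZC1, 36.7 CPM in ZC2 and 203 CPM in ZC3 cells. At least 10 member UMIs of 1000 were found in 1 of 34 ZC1, 1 of 44 ZC2 and 7 of 29 ZC3 cells, so the ZC3 level rests on few cells, and 1 cell held 78.1% of the ZC1 and 22.7% of the ZC3 UMIs of the IFIT genes and Rsad2. Thinned to 1000 UMIs, 1 member was left to compare in each pair.

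Intermediate cells of ZC1 and ZC2 were both below ZC3. ZC1 over ZC3 gave 19 of 37 members lower and 1, Irf9, higher, against 6.96% and 7.54% of 8464 genes, with a median log2 ratio of -0.60 against -0.03. ZC2 over ZC3 gave 27 of 36 lower and 0 higher, against 5.13% and 4.21% of 8305 genes, with a median of -0.84. ZC1 over ZC2 gave 15 of 33 higher and 0 lower, against 7.60% and 5.97% of 8094 genes, with a median of 0.54 against -0.02 over all genes, where in monocyte-like cells the same pair had 0 higher. Rsad2 had 17.6 CPM in ZC1, 5.59 CPM in ZC2 and 61.2 CPM in ZC3 intermediate cells, and Irf9 had 39.4, 23.4 and 24.1 CPM in that order. In ZC2, 0 of 74 cells had 10 or more member UMIs of 1000, which at a floor of 3 cells allows up to 4.05%, against 6 of 108 ZC1 and 12 of 100 ZC3 cells. The cell with the most UMIs of the IFIT genes and Rsad2 held 10.9% of them in ZC1, 14.8% in ZC2 and 25.4% in ZC3 intermediate cells.

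In macrophage-like cells fewer members were past 1.5-fold from ZC3 than in intermediate or cDC2-like cells. ZC1 over ZC3 gave 4 of 37 members lower and 0 higher, against 4.36% and 6.10% of 10648 genes, with a median log2 ratio of -0.19. ZC2 over ZC3 gave 12 of 37 lower and 1 higher, against 4.26% and 6.39% of 10649 genes, with a median of -0.39. Isg15 had 126 CPM in ZC1 and 192.9 CPM in ZC3 macrophage-like cells. Cmpk2, a nucleotide kinase gene that neighbours Rsad2, had 16.0 CPM in ZC1, 5.79 CPM in ZC2 and 14.6 CPM in ZC3 cells. In 171 ZC2 cells the top cell held 38.4% of the UMIs of the IFIT genes and Rsad2. High cells made up 3.82% of ZC1, 3.51% of ZC2 and 4.26% of ZC3 macrophage-like cells. In CD8 T-like cells medians were 0.10 for ZC1 over ZC3 and -0.29 for ZC2 over ZC3, each from 17 members, and in CD4 T-like cells 6 members could be compared.

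**Figure D5:**
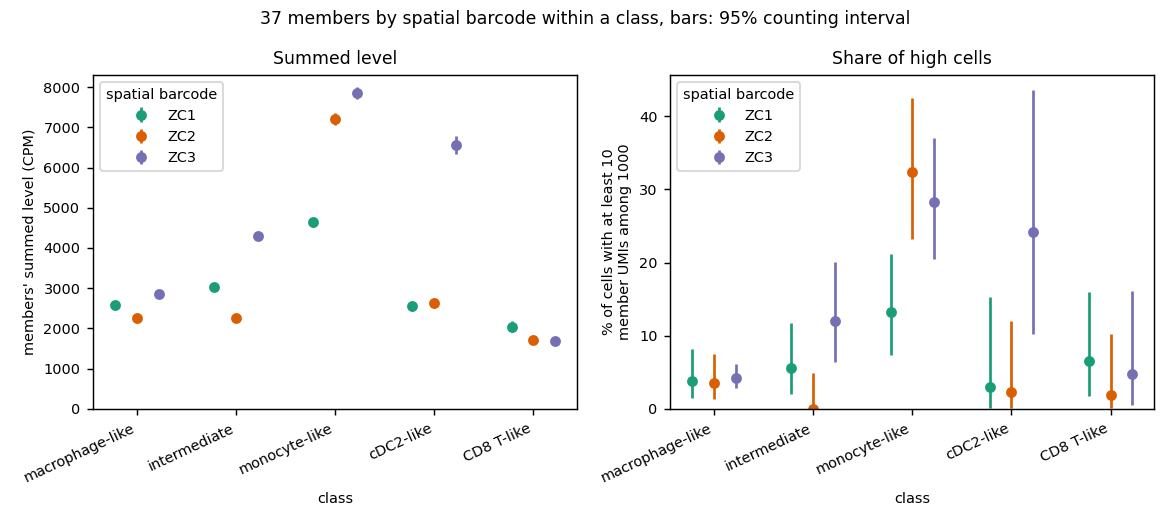
Left, summed level of 37 members in CPM, and right, share of cells in % with at least 10 member UMIs after thinning to 1000, by class (across) and spatial barcode under the relative rule, with 95% counting intervals. ZC1 monocyte-like cells sit at 4635 CPM, below ZC2 and ZC3, and among cDC2-like cells ZC3 alone sits high, at 6554 CPM.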

How the data were processed

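The deposited matrix holds raw UMI counts per gene and droplet barcode, with the 3 spatial barcodes as further features, made by the authors with Cell Ranger 4.0.0 on mm10 per the submitters' processing notes; its barcodes were not filtered to cells. Kept barcodes had at least 1000 gene UMIs, 500 genes and at most 10% mitochondrial UMIs. Classes were gated on marker UMIs per 10000, with limits set after the marker distributions were seen. Of the kept cells, 116 carrying both T cell and C1q genes and 298 unassigned cells entered no comparison, and no doublet caller was run. Counts were summed over cells and scaled to CPM. CPM intervals are exact Poisson, and ratio and share intervals are exact binomial, all for counting error only. Genes named are the 3 highest and 3 lowest members of a comparison, members by role, and the ends of each list, and other genes were chosen after their values were seen. The members and lists were chosen with earlier results of these data known. The calls were tested on simulated data drawn with counting error alone, the error that the intervals assume. That setting lacks the spread between cells seen here, so it cannot tell how the calls hold under that spread. Clusters were made with scanpy 1.11.5 and igraph 0.11.9, intervals with scipy 1.17.1, sums with pandas 2.3.3 and numpy 2.4.6, all in Python 3.11.15. Mx2 was not analysed here. Alternatives covered gates, filters, thinning, left-out cells, clusters and barcode rules.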

Additional observations from a re-analysis of the deposited data

How the results depend on the processing

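No paired analysis was possible because there was 1 library and no replicate. Of 175 recomputed medians over members 22 moved outside the order-statistic interval of the reported median, and of 523 recomputed gene ratios 88 moved and 2 reversed. Both reversals were Ifi204 in checkpoint-high over checkpoint-low CD8 T-like cells, at log2 -1.43 with gate limits doubled and -0.85 with them halved. The medians that moved (log2) were as follows, and the cause was not tested. With at most 5% mitochondrial UMIs, melanoma-like over macrophage-like cells gave 0.90. Gate limits doubled gave -0.73 for the checkpoint comparison, and limits halved gave -0.68 there, 0.37 for NK-like over CD8 T-like and -0.71 for mature DC-like over cDC2-like cells. Leiden clusters gave -1.64 for macrophage-like over monocyte-like cells, -0.97 for the checkpoint comparison, 0.48 for ZC2 over ZC3 monocyte-like cells, and -1.17 and -1.12 for ZC1 and ZC2 over ZC3 cDC2-like cells. The mean of the cells' CPM gave -0.67 for NK-like over CD8 T-like cells, and leaving out the top cell gave 0.10 for Treg-like over CD8 T-like cells. Thinning to 1000 UMIs left 5 or fewer members to compare in each of these: Treg-like 0.74 and NK-like -0.79 over CD8 T-like, mature DC-like -0.44 and cDC1-like -0.39 over cDC2-like, CD8 T-like ZC2 over ZC3 0.025 by the fixed rule, and by the relative rule cDC2-like ZC1 over ZC3 -0.50, ZC2 over ZC3 -1.02 and ZC1 over ZC2 0.51, and CD8 T-like ZC1 over ZC3 -0.40 and ZC1 over ZC2 -0.55. Macrophage-like over monocyte-like cells stayed between -1.64 and -1.26 over 12 alternatives, among them a monocyte gate without Ly6c2. The Ifnb1 split gave 0.58 to 1.26 over 4. CD4 T-like ZC1 over ZC3 at a higher UMI limit per cell and CD8 T-like ZC2 over ZC3 at 4 times the next barcode gave no value.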
